A study of Mus musculus with 23 samples.

Results

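C2C12 myoblasts, an established mouse muscle line that fuses into myotubes when serum is lowered, were profiled by RNA sequencing between day 1 and day 3 of differentiation, and the change over that interval was compared between control cells and cells labelled Runx1KO. The comparison is a difference of differences: the step from day 1 to day 3 in the labelled KO libraries minus the same step in the control libraries. It uses 12 of the 23 libraries of the series, 3 in each of 4 groups: control at day 1, control at day 3, labelled KO at day 1 and labelled KO at day 3. All 12 came from cells in differentiation medium with 2% horse serum, and the series also holds cells in growth medium with 20% FBS and a later time point, which are not compared here. The control group is C2C12 with no named change at Runx1, and the KO group is the same line labelled Runx1KO. The labels do not say how the KO cells were made, whether they are 1 clone or several, or whether the 3 replicates of a group were separate cultures, so p-values measure the spread between these libraries, which may be technical. A clonal difference unrelated to Runx1 and the loss of Runx1 cannot be told apart in this design.

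Runx1 is a DNA-binding transcription factor best known from blood formation, and in muscle it is expressed in proliferating and regenerating myoblasts and after loss of the nerve. Between the first days in low serum, myoblasts leave the cell cycle, switch on myogenin and the sarcomere genes, reorganise their actin cytoskeleton and begin to fuse. Interferon-stimulated genes, by contrast, are switched on in most cell types through the factors Stat2 and Irf9 after interferon binds its receptor, and their products act against viruses and feed antigen presentation.

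Expression is given as counts scaled to the library total and composition (CPM), and a step as the log2 fold change from day 1 to day 3. A positive difference of the steps means that the gene moved further up, or less far down, in the labelled KO libraries. The test was edgeR's quasi-likelihood F-test, its p-values were adjusted by the Benjamini-Hochberg method over 14187 genes, and a difference was called where the adjusted value was under 0.05. The words "rose" and "fell" are used of steps only at that threshold. The 12 libraries belong to a set with 22197606 to 23684077 counts each. Replicate 2 of the labelled KO day 1 group stood apart: its chi-square per degree of freedom against the other libraries of its group was 61.1 and 61.4, while the same measure lay between 3.10 and 12.9 in every other pair. The 13 tested genes of the AP-1 list were all lowest in that library among the 3 of its group, with a summed level of 1454 CPM against 2374 and 2379. Across 13265 genes its deviation from the group mean correlated with GC content at r = -0.634, against 0.437 and 0.434 in the other libraries of the group, which share that mean, and between -0.056 and 0.0481 in the other 9. Muscle markers were expressed throughout, with the summed level of 6 of them (Myod1, Myf5, Des and others) between 2453 and 4501 CPM, against 10.8 to 19.2 CPM for 6 macrophage markers, of which Ptprc and Adgre1 were at 0 in all 12 libraries. The 5 endothelial markers summed to 0.224 to 0.759 CPM, with Tie1 at 0 in all 12, and the 7 adipocyte markers to 20.0 to 38.3 CPM. The 8 bone and cartilage markers were not low. They summed to 1677 to 1702 CPM in control day 1 libraries and 612 to 1043 CPM in the other groups, mostly through Spp1. In bulk RNA, a change in the number of cells of a type and a change in RNA per cell cannot be told apart.

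Runx1 mRNA itself was not lower under the KO label. Runx1 stood at 104, 108 and 95.5 CPM at day 1 and 153, 148 and 145 at day 3 in control libraries. Runx1 under the KO label stood at 137, 117 and 138 CPM at day 1 and 249, 199 and 203 at day 3. All 3 labelled KO libraries were above all 3 controls at each day. Runx1 rose in both, by a log2 step of 0.54 in controls and 0.73 in labelled KO libraries, and the difference of 0.19 ± 0.12 was not called (edgeR adjusted p = 0.374). A transcript that no longer encodes a working protein can still be counted, so mRNA level does not check the label, and the libraries are called labelled KO throughout. Of 6 Runx and ETS family genes tested, Runx1 among them, 0 were called by edgeR's test, beside 6.05% of all genes, with 2 lower at an unadjusted p under 0.05 and 1 lower by DESeq2.

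The step differed between genotypes for 858 of 14187 genes, or 6.05%. The difference was positive for 492 genes (3.47%) and negative for 366 (2.58%), with median sizes of 0.90 and -0.64 on the log2 scale, and the median over all genes was 0.017. Large differences were mostly positive: a size of at least 1 was reached by 222 positive and 78 negative calls, and a size of at least 2 by 86 and 23. The 6.05%, 3.47% and 2.58% printed beside list counts are from edgeR's adjusted test. Counts at an unadjusted p or by another tool have other totals over all genes. At an unadjusted p under 0.05, 1493 differences were positive and 1360 negative. DESeq2 called 608 positive and 569 negative, and limma on log2(TPM + 1) 422 and 455. Between day 1 and day 3, 19.7% of genes changed in control libraries, of which 1566 rose (11%) and 1231 fell (8.68%). In labelled KO libraries 26.7% changed, with 2196 rising (15.5%) and 1594 falling (11.2%). With an offset for GC content most called steps were downward, 1957 against 1584 rising in controls and 2413 against 1990 in labelled KO libraries, so the main direction of each line's step depends on that setting. The most frequent form of a positive difference was a gene that rose in labelled KO libraries while its control step was not called, seen for 249 of the 492. Another 100 fell in controls alone, 84 rose in both, and 32 fell in controls and rose in labelled KO libraries. Among the 366 negative differences, 151 fell in labelled KO libraries alone, 119 rose in controls alone, 31 rose in both and 30 rose in controls but fell in labelled KO libraries. The sign of the difference does not say which line had more RNA: by fitted level, 254 of the 492 genes were lower in the labelled KO group at day 1 and higher at day 3, 143 were higher at both days and 95 were lower at both. Without replicate 2 of the labelled KO day 1 group, 1077 genes were called, 515 of them higher and 562 lower, so the share that was higher went from 57.3% to 47.8%, and 737 of the 858 genes were called in both fits. List counts given without that library are from this fit, with these totals over all genes. Those given without replicate 1 of the labelled KO day 3 group are from a fit that called 430 genes higher and 333 lower.

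**Figure D1:**
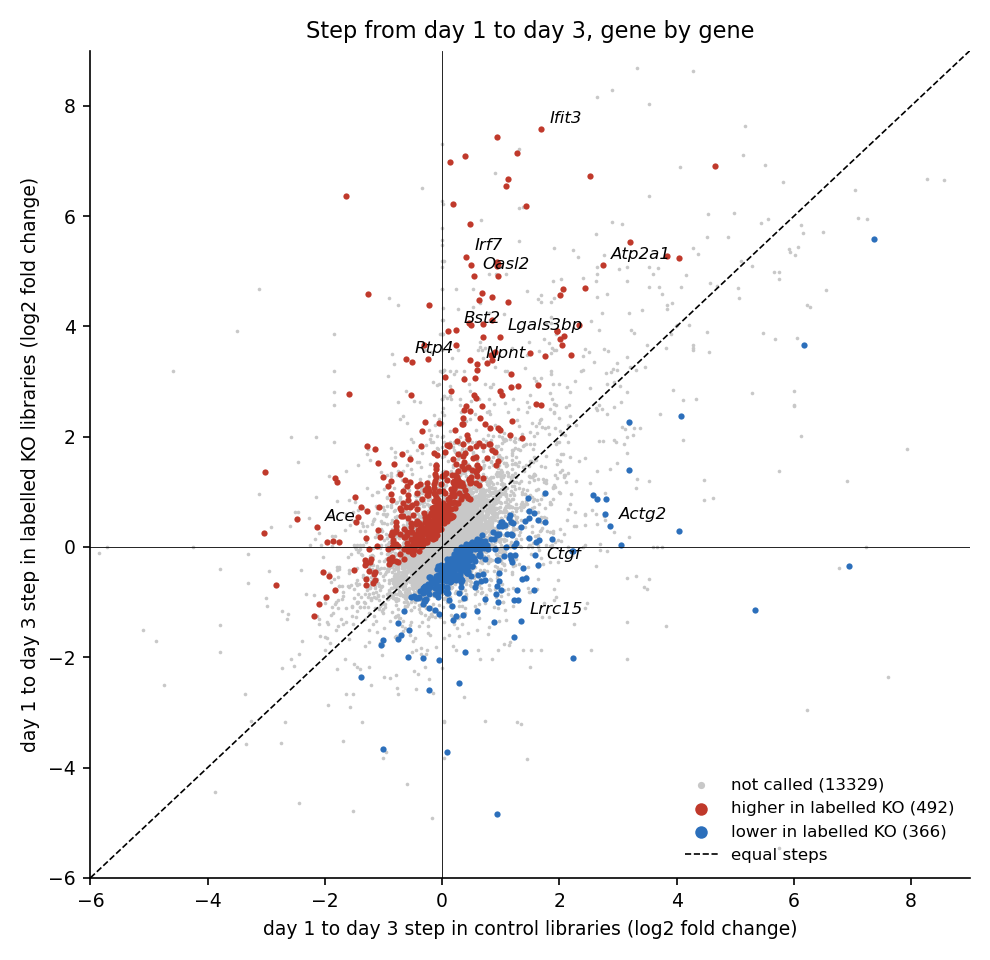
Each point is 1 of the 14187 genes tested, with its log2 step from day 1 to day 3 in control libraries on the x axis and in labelled KO libraries on the y axis; red and blue mark the 492 positive and 366 negative differences, and the dashed line marks equal steps. Red points rise steeply near a control step of 0, where Oasl2, Bst2, Rtp4 and Irf7 lie, while Actg2, Ctgf and Lrrc15 sit well under the line; 11 genes, none of them called, fall outside the axes.

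Interferon-stimulated genes led the positive differences. Of 45 antiviral effector genes tested, 28 were higher and 0 lower by edgeR's test (33 and 1 at an unadjusted p under 0.05, 34 and 0 by DESeq2), beside 3.47% and 2.58% of all genes, with a median difference of 2.63 (1.85 from group means, with each mean under 3 counts a library set at that floor) against 0.017 over all genes. Within the control line 14 of the 45 rose and 3 fell, beside 11% and 8.68% of all genes. In the labelled KO line 40 rose and 1 fell, beside 15.5% and 11.2%. The summed level of the 45 genes was 767 to 782 CPM in control libraries at day 1 and 616 to 660.0 at day 3, and it went from 569 to 620.2 CPM at day 1 to 1232 to 1538 at day 3 in the labelled KO libraries. Replicate 1 had the highest level of the 3 labelled KO day 3 libraries for 32 of the 45 genes, and without it 26 were still higher.

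Oasl2, an antiviral protein of the oligoadenylate synthetase family (chr5:114896926-114912245 in GRCm38.p6), had the largest difference among genes with at least 1 CPM in every group and 5 in the highest. Oasl2 stood at 2.68, 3.35 and 3.12 CPM at day 1 and 4.48, 4.85 and 4.03 at day 3 in control libraries. Oasl2 under the KO label stood at 1.49, 1.76 and 1.57 CPM at day 1 and 58.8, 37.8 and 50.02 at day 3. It was lowest in the labelled KO libraries at day 1 and highest in them at day 3, with no overlap between any of the 4 groups. The control step of 0.55 was not called, the labelled KO step was 4.92, and the difference was 4.37 ± 0.29 (SE; edgeR adjusted p = 1.11e-09). Rtp4, a chaperone for receptors that is induced by interferon, took steps of opposite direction. Control libraries held Rtp4 at 3.23, 3.901 and 3.801 CPM at day 1 and 2.18, 2.21 and 2.73 at day 3, and labelled KO libraries at 2.16, 2.47 and 2.19 CPM at day 1 and 27.4, 19.7 and 25.7 at day 3. It fell by 0.62 in controls and rose by 3.41 in labelled KO libraries, a difference of 4.03 ± 0.23 (edgeR adjusted p = 1.37e-10). Bst2, also called tetherin, holds budding virus at the cell surface. Bst2 measured 5.31, 7.46 and 6.96 CPM at day 1 and 6.96, 8.71 and 7.46 at day 3 in controls. Bst2 under the KO label measured 3.29, 3.47 and 3.85 CPM at day 1 and 57.97, 44.04 and 61.3 at day 3. Its difference was 3.71 ± 0.25 (edgeR adjusted p = 1.11e-09), and only the day 3 labelled KO libraries were above 10 CPM.

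Isg15, a ubiquitin-like protein that is attached to other proteins during an interferon response, gave a difference of 3.96 ± 0.33. Isg15 stood at 1.87, 1.78 and 1.88 CPM at day 1 and 3.92, 3.47 and 3.38 at day 3 in controls. Isg15 under the KO label stood at 0.857, 0.586 and 0.761 CPM at day 1 and 26.4, 18.2 and 22.4 at day 3. Lgals3bp, a secreted glycoprotein that binds galectins, rose in both lines. Lgals3bp stood at 13.5, 13.9 and 13.96 CPM at day 1 and 28.8, 28.3 and 24.5 at day 3 in controls. Lgals3bp under the KO label stood at 13.3, 8.58 and 12.04 CPM at day 1 and 177, 135 and 164 at day 3, and the difference was 2.83 ± 0.22. Ifit3, an RNA-binding effector, had the most positive called difference among genes with a group under 1 CPM and at least 5 in the highest. Ifit3 gave 0.382, 0.382 and 0.171 CPM at day 1 and 1.09, 0.996 and 0.954 at day 3 in controls. Ifit3 under the KO label measured 0.406, 0.167 and 0.0895 CPM at day 1 and 52.7, 31.4 and 44.5 at day 3, and the difference was 5.89 ± 0.87 (edgeR adjusted p = 8.38e-05). Ifitm3, which blocks virus entry, was already high in every library. Ifitm3 measured 391, 406 and 409 CPM at day 1 and 227, 230.1 and 206 at day 3 in controls. Ifitm3 under the KO label measured 279, 219 and 285 CPM at day 1 and 329, 284 and 336 at day 3: it fell by 0.86 in controls, its labelled KO step of 0.28 was not called, and the difference was 1.14 ± 0.15. Apol9a and Apol9b, apolipoprotein L genes with near-identical sequences between which reads may be split uncertainly, had differences of 2.65 ± 0.19 and 2.55 ± 0.21. Mndal, a nuclear protein of the interferon-inducible p200 family, had a difference of 2.31 ± 0.36.

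Some members had very few reads at day 1. Oas2, an oligoadenylate synthetase, had 0 counts in the 3 labelled KO day 1 libraries and 278 in all at day 3, at least 31.7-fold higher against a floor of 3 counts, while controls held 1 and 4 counts in all. Usp18, a feedback inhibitor of interferon signalling, had 1 count and 529 counts in the labelled KO libraries at days 1 and 3, a ratio of 542 with a 95% counting interval of 96.8 to 21440. Their differences were not called by edgeR's test (adjusted p = 0.217 and 0.965), although DESeq2 and both limma fits called them. Rsad2, viperin, was called at 3.29 ± 0.87 but lost the call when any of 3 control libraries was left out or when the other 11 libraries of the series were removed from the fit (1.73 to 3.83 over all 23 alternatives).

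Of 18 interferon ligands, receptors, kinases and factors, 5 were higher and 0 lower by edgeR's test (7 and 1 unadjusted, 6 and 1 by DESeq2), beside 3.47% and 2.58% of all genes, at a median of 0.16, Irf7, Irf9, Stat2 and Socs3 among them. Irf7, the factor that amplifies type I interferon production, stood at 2.34, 2.88 and 2.56 CPM at day 1 and 2.92, 3.64 and 3.82 at day 3 in controls. Irf7 under the KO label stood at 0.812, 0.712 and 1.25 CPM at day 1 and 41.001, 27.8 and 38.4 at day 3, a difference of 4.85 ± 0.32 (edgeR adjusted p = 1.11e-09). Irf9, the DNA-binding partner of Stat2, stood at 5.78, 5.09 and 6.36 CPM at day 1 and 7.66, 7.28 and 7.1999 at day 3 in controls. Irf9 under the KO label stood at 5.55, 4.94 and 4.34 CPM at day 1 and 26.97, 23.6 and 24.5 at day 3 (difference 1.98 ± 0.20). Stat2 differed by 1.00 ± 0.14. Socs3, a feedback inhibitor, differed by 0.60 ± 0.15 and was not called in 4 of 23 alternatives (0.34 to 0.69 over all 23). The receptor chain Ifnar1 differed by -0.04 ± 0.10 and the kinase Jak1 by -0.32 ± 0.11, neither of them called by edgeR's test. Jak1 was lower by DESeq2 (-0.34) and by edgeR without replicate 1 of the labelled KO day 1 group (-0.39). Irf3, which induces interferon after sensing, and Irf1 had differences of 0.19 and -0.07 that were not called either.

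Among 11 sensors of foreign or misplaced nucleic acid, 6 were higher and 0 lower by edgeR's test (8 and 0 unadjusted, 6 and 0 by DESeq2), beside 3.47% and 2.58% of all genes: Zbp1, Dhx58, Ifih1, Ddx58, Trex1 and Tmem173. Zbp1, which binds Z-form nucleic acid, stood at 1.44, 1.696 and 1.58 CPM at day 1 and 2.44, 2.47 and 1.73 at day 3 in controls. Zbp1 under the KO label stood at 0.586, 0.419 and 0.537 CPM at day 1 and 21.9, 13.4 and 18.5 at day 3 (difference 4.62 ± 0.35). Ddx58, the RNA sensor RIG-I, measured 19.4, 20.02 and 19.2 CPM at day 1 and 21.1, 21.4 and 21.3 at day 3 in controls. Ddx58 under the KO label measured 10.3, 13.4 and 11.2 CPM at day 1 and 48.4, 37.03 and 40.1 at day 3, where the step of 1.85 was called and that of controls was not. Its difference was 1.72 ± 0.15 (edgeR adjusted p = 7.99e-08). Tmem173, the DNA-response adaptor STING, differed by 0.67 ± 0.13 through a fall of 0.85 in controls. The adaptor Mavs (0.23), the DNA sensor Mb21d1 (0.18) and the nucleotide hydrolase Samhd1 (0.14) were not called. In the group of 14 interferon-induced GTPases, which attack the membranes around intracellular microbes, 9 were higher and 0 lower by edgeR's test (10 and 0 unadjusted, 8 and 0 by DESeq2), beside 3.47% and 2.58% of all genes, with a median difference of 2.64. Irgm2 stood at 0.722, 1.02 and 0.854 CPM at day 1 and 2.39, 1.99 and 1.95 at day 3 in controls. Irgm2 under the KO label stood at 0.0902, 0.126 and 0.179 CPM at day 1 and 24.7, 14.1 and 19.3 at day 3 (difference 5.86 ± 0.53). Igtp differed by 4.17 ± 0.49 and Irgm1 by 1.52 ± 0.19. Without replicate 2 of the labelled KO day 1 group, 7 of the 14 GTPases were higher.

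Antigen presentation genes moved by smaller amounts. Of 17 tested, 10 were higher and 0 lower by edgeR's test (12 and 0 unadjusted, 10 and 0 by DESeq2), beside 3.47% and 2.58% of all genes, with a median of 0.67. Without replicate 2 of the labelled KO day 1 group 6 were higher. B2m, the shared light chain of class I molecules, stood at 259, 279.97 and 289 CPM at day 1 and 262, 279 and 265 at day 3 in controls. B2m under the KO label stood at 376, 321 and 367 CPM at day 1 and 552, 559 and 579 at day 3, which were above controls at both days (difference 0.71 ± 0.14). Tap1, which carries peptides into the endoplasmic reticulum, measured 4.54, 6.83 and 4.19 CPM at day 1 and 7.79, 8.102 and 9.46 at day 3 in controls. Tap1 under the KO label measured 2.84, 2.64 and 3.804 CPM at day 1 and 11.9, 10.1 and 11.04 at day 3. It rose in both, and its difference was 1.13 ± 0.25 (edgeR adjusted p = 0.0061). H2-K1, a class I heavy chain, had a difference of 0.54 ± 0.16 that passed narrowly (edgeR adjusted p = 0.0438) and was not called in 15 of 23 alternatives (0.41 to 0.59 over all 23). Among 11 chemokines and cytokines, 4 were higher (Cxcl10, Cxcl1, Cxcl5 and Cx3cl1) and 1, Lif, was lower, beside 3.47% and 2.58% of all genes. Cx3cl1 was not called with only the 12 libraries in the fit, nor Cxcl5 by limma on log2(TPM + 0.1). Cxcl10, an interferon-induced attractant of T cells, had no called step in controls and rose in labelled KO libraries from 0.541, 1.00 and 0.985 CPM to 11.5, 4.42 and 5.47 (difference 2.51 ± 0.57). Cxcl1 and Cxcl5, attractants of neutrophils, fell by 1.29 and 1.24 in controls and their labelled KO steps were not called (differences 1.01 ± 0.23 and 0.96 ± 0.22).

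Ly6a, a surface protein listed here as a fibroblast and progenitor marker and known to respond to interferon, moved with these genes. Ly6a stood at 36.95, 47.5 and 46.3 CPM at day 1 and 52.3, 55.4 and 64.4 at day 3 in controls. Ly6a under the KO label stood at 71.6, 61.3 and 74.02 CPM at day 1 and 219, 229 and 225 at day 3 (difference 1.31 ± 0.23). The summed level of the fibroblast markers was 66.7 to 85.6 CPM in controls, 76.4 to 89.0 at day 1 and 232 to 245 at day 3 in labelled KO libraries. Most of that day 3 sum was Ly6a. Over the 4 tested markers the median log2 level at day 3 was lower under the KO label than in controls, by -1.12. Of the 4, Ly6a was called and 3 were not, beside 6.05% called of all genes, and Thy1 was at 0 in all 12. The macrophage list summed to 10.8 to 11.8 CPM in the labelled KO day 3 libraries, below its 12.4 to 19.2 in the other 9. Their part in the interferon result was not tested.

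**Figure D2:**
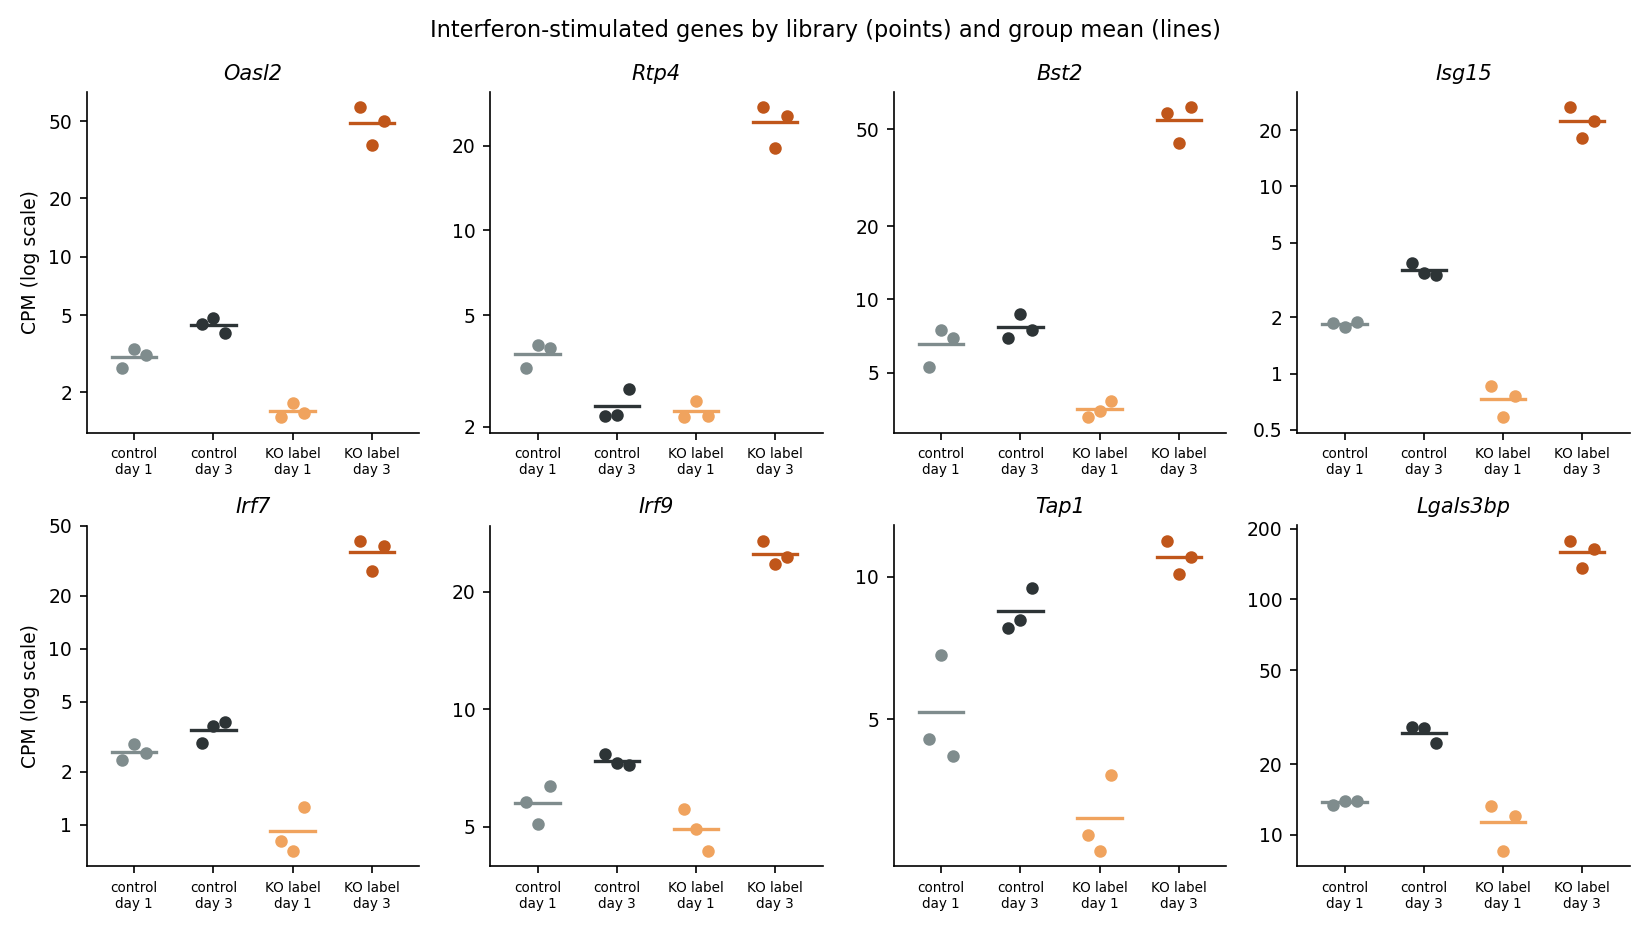
CPM on a log scale (y axis) of 8 interferon-stimulated genes in the 4 groups (x axis), with a point for each of 3 libraries and a line at the group mean. In each panel the 3 labelled KO day 3 libraries lie above the other 9, from 10.1 to 11.9 CPM for Tap1 to 135 to 177 CPM for Lgals3bp.

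Because interferon-stimulated genes share a promoter element, the start regions of the genes were searched for it. RefSeq promoters of GRCm38.p6, from 250 bases before to 50 after a gene's start, were matched by symbol for 10422 of the 14187 genes. The core of the interferon-stimulated response element, GAAANNGAAA on either strand, was present in 3.8% of them, in 49 of 354 genes with a positive difference (13.8%) and in 8 of 276 with a negative one (2.9%). Among the 5 interferon lists it was present in 26 of 46 called genes with a promoter (56.5%) and in 10 of 36 that were not called (27.8%). Some of those 10 had large positive estimates that rested on few counts at day 1, so 27.8% is not a share among genes with equal steps. Runx sites, TGTGGT or TGCGGT on either strand, were present in 24.2% of all promoters, 25.7% of those with a positive difference and 26.4% of those with a negative one. The windows below are from 6 genes of the interferon lists whose differences were positive, are written on the gene's strand, and have the matched bases in capitals, and the capitals are the reverse complement where the element lies on the other strand.
Isg15: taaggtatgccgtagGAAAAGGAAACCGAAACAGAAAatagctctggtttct
Bst2: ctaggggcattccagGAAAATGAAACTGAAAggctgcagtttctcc
Irgm2: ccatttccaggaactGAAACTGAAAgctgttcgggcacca
Ifit1: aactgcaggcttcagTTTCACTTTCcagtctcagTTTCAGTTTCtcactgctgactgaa
Oas3: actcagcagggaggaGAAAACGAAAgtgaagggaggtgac
Stat2: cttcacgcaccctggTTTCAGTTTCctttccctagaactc
In Isg15 (chr4:156200860-156200911, minus strand) 3 overlapping copies of the element ran from 78 to 57 bases before the start, and Bst2 (chr8:71537572-71537617, minus strand) held 2 copies from 130 to 115 bases before it. Ifit1 (chr19:34640770-34640828, plus strand) had 2 separate copies. The others held 1 copy each, in Irgm2 (chr11:58214898-58214937, plus strand), Oas3 (chr5:120777710-120777749, minus strand) and Stat2 (chr10:128270261-128270300, plus strand). A match describes the letters of these windows and is not evidence of binding in these cells.

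Differentiation itself went forward in both lines. Myogenin (Myog), the factor that starts terminal differentiation, stood at 10.6, 5.05 and 17.98 CPM at day 1 and 173, 158 and 173 at day 3 in controls. Myog under the KO label stood at 32.4, 27.9 and 40.9 CPM at day 1 and 723, 366 and 389 at day 3. Labelled KO libraries were higher at each day, Myog rose by 3.91 in controls and by 3.87 in labelled KO libraries, and the difference of -0.04 ± 0.37 was not called (edgeR adjusted p = 0.971). Of 46 sarcomere genes, 37 rose in controls and 40 in labelled KO libraries, beside 11% and 15.5% of all genes. The steps differed for 8 of them, 5 positive and 3 negative, beside 6.05% of all genes (12 and 8 unadjusted, 6 and 5 by DESeq2, 13 and 3 by limma on log2(TPM + 1)). Titin (Ttn), embryonic myosin (Myh3) and cardiac actin (Actc1), which is the early actin of the sarcomere, had differences of 0.23, -0.79 and -0.30 that were not called with all 12 libraries. Replicate 1 of the labelled KO day 3 group was the highest of its group for 39 of the 46 sarcomere genes, with a summed level of 14280.0 CPM against 9583 and 10429. Without it Myh3 was called lower (-1.18, edgeR adjusted p = 0.00772), 5 sarcomere genes were higher and 7 lower, and without replicate 2 of the labelled KO day 1 group 7 were higher and 4 lower.

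The muscle genes that differed did so in named places. Atp2a1, the calcium pump of the fast sarcoplasmic reticulum, was 1 of the 10 largest positive differences under that same expression limit. Atp2a1 stood at 9.85, 9.499 and 13.2 CPM at day 1 and 70.5, 71.96 and 74.7 at day 3 in controls. Atp2a1 under the KO label stood at 6.49, 6.99 and 8.28 CPM at day 1 and 317, 206 and 229 at day 3, below controls at day 1 and above them at day 3. It rose by 2.74 and 5.11, a difference of 2.37 ± 0.23 (edgeR adjusted p = 2.28e-07). Of 13 genes that couple excitation to contraction, 4 were higher and 0 lower by edgeR's test (4 and 1 both unadjusted and by DESeq2), beside 3.47% and 2.58% of all genes: Atp2a1, the calcium channel subunits Cacnb1 (1.11 ± 0.22) and Cacng1 (1.06 ± 0.19), and the channel adaptor Stac3 (1.08 ± 0.16). Replicate 1 of the labelled KO day 3 group was the highest of its group for 12 of the 13, and without it 4 were higher and 1 lower. The release channel Ryr1 rose in both lines and differed by -0.10 ± 0.28, which was not called. Myl4, the embryonic and atrial light chain of myosin, measured 0.934, 1.103 and 1.07 CPM at day 1 and 26.03, 23.96 and 28.7 at day 3 in controls. Myl4 under the KO label measured 1.94, 1.7999 and 1.92 CPM at day 1 and 286, 176 and 217 at day 3 (difference 2.25 ± 0.33). Smaller positive differences were found for Ldb3 (1.07 ± 0.19) of the Z disc, cardiac troponin T Tnnt2 (0.99 ± 0.20), the thin filament cap Tmod1 (0.90 ± 0.15) and Klhl41 (0.88 ± 0.22), which was not called in 3 of 23 alternatives (0.66 to 1.01 over all 23).

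Skeletal actin (Acta1), the main actin of the adult sarcomere, was negative although it rose in both lines. Acta1 stood at 5.69, 4.79 and 10.8 CPM at day 1 and 1129, 1138 and 1246 at day 3 in controls. Acta1 under the KO label stood at 49.9, 32.6 and 62.5 CPM at day 1 and 3233, 1771 and 1931 at day 3. Labelled KO values were higher at both days, and the smaller step there (5.58 against 7.36) began from a higher day 1 level (difference -1.78 ± 0.34). Xirp1, an actin-binding protein of the developing myofibril, measured 9.004, 8.61 and 11.6 CPM at day 1 and 29.6, 31.3 and 27.6 at day 3 in controls. Xirp1 under the KO label measured 66.9, 67.6 and 71.3 CPM at day 1 and 87.1, 68.9 and 62.4 at day 3, where its step was not called (difference -1.51 ± 0.20).

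Subunits of the muscle acetylcholine receptor, the target of the motor nerve, were among the positive differences: 3 of 8 tested genes were higher and 0 lower by edgeR's test (7 and 0 unadjusted, 5 and 0 by DESeq2), beside 3.47% and 2.58% of all genes. Chrng, the fetal subunit, stood at 64.1, 61.5 and 70.2 CPM at day 1 and 122, 116 and 116 at day 3 in controls. Chrng under the KO label stood at 40.6, 29.6 and 46.3 CPM at day 1 and 159, 114 and 121 at day 3, lower than controls at day 1 and overlapping them at day 3 (difference 0.90 ± 0.20). Chrnd differed by 0.74 ± 0.13 and Chrnb1 by 0.45 ± 0.12, while Chrna1 (0.21) was not called. Without replicate 1 of the labelled KO day 3 group 2 of the 8 were higher, and Chrnb1 was not called in 7 of 23 alternatives (0.34 to 0.51 over all 23). Of 14 genes of muscle energy metabolism, 5 were higher and 0 lower, beside 3.47% and 2.58% of all genes: glycogen phosphorylase Pygm (1.45 ± 0.32), the muscle phosphoglycerate mutase Pgam2 (1.97 ± 0.32), phosphofructokinase Pfkm (0.70 ± 0.11), the glucose transporter Slc2a4 (1.604 ± 0.41) and Cox8b (2.55 ± 0.71), of which Slc2a4 was not called in 4 of 23 alternatives (0.74 to 1.91 over all 23) and Cox8b was not called in 8 of 23 alternatives (1.72 to 3.22 over all 23). Creatine kinase Ckm rose in both lines and differed by -0.73 ± 0.40, which was not called with all 12 libraries. Without replicate 1 of the labelled KO day 3 group Ckm was lower (-1.08, edgeR adjusted p = 0.0199) and 4 of the 14 were higher. Among 10 fusion genes, the fusogen Mymk had a difference of 1.197 ± 0.31 that was not called without replicate 2 of the labelled KO day 1 group (0.89, edgeR adjusted p = 0.0523) and was not called in 6 of 23 alternatives (0.89 to 1.49 over all 23). Jam3 was higher (0.67 ± 0.15), though not by either limma fit, and the receptor Cdon was lower (-0.62 ± 0.13), so that 2 of the 10 were higher and 1 lower, beside 3.47% and 2.58% of all genes.

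Of 19 myogenic regulators 5 were higher and 0 lower by edgeR's test (6 and 1 unadjusted, 5 and 0 by DESeq2), beside 3.47% and 2.58% of all genes. Myod1, the factor that commits cells to muscle, stood at 252, 224 and 281 CPM at day 1 and 237, 221 and 208 at day 3 in controls. Myod1 under the KO label stood at 253, 133 and 252 CPM at day 1 and 337, 321 and 321 at day 3, with replicate 2 at day 1 well below the rest (difference 0.80 ± 0.21, and 0.54 without that library), and its difference was not called in 3 of 23 alternatives (0.54 to 0.95 over all 23). Myf5, its close relative, fell by 0.28 in controls and rose by 0.51 under the KO label (difference 0.79 ± 0.10). Id1, which binds the partners of Myod1 and holds differentiation back, measured 7.26, 6.32 and 6.23 CPM at day 1 and 5.75, 3.47 and 3.21 at day 3 in controls. Id1 under the KO label measured 7.803, 6.19 and 7.83 CPM at day 1 and 13.9, 12.9 and 11.3 at day 3. Id1 and Id3 both fell in controls, and their differences were 1.48 ± 0.23 and 0.97 ± 0.21. The satellite cell factor Pax7 fell by 0.51 in controls and had a difference of 0.28 ± 0.16 that was not called.

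**Figure D3:**
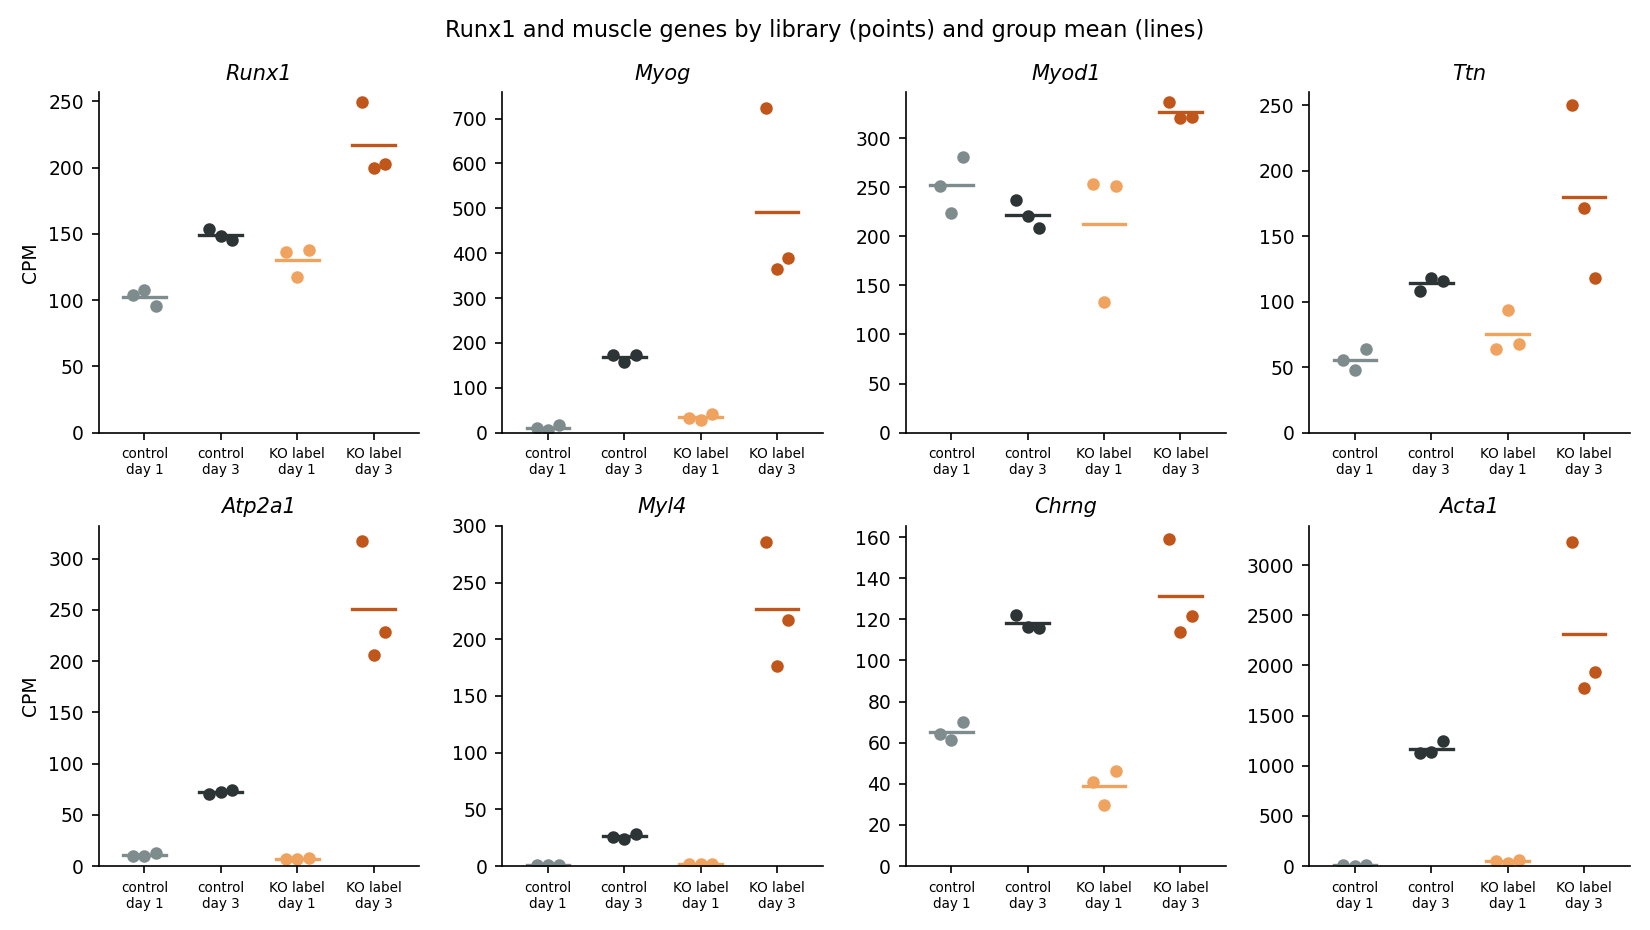
CPM (y axis, from 0) of Runx1 and 7 muscle genes in the 4 groups (x axis), with a point for each of 3 libraries and a line at the group mean. Runx1 is higher in all labelled KO libraries than in controls of the same day, Myog, Ttn and Acta1 rise in both lines, and replicate 1 is the highest labelled KO day 3 point in each panel.

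DNA replication genes gave no call by edgeR's test: 0 of 28 were higher and 0 lower, beside 3.47% and 2.58% of all genes, at a median of -0.06. DESeq2 and both limma fits also called 0. At an unadjusted p under 0.05, 0 were higher and 3 lower, beside 1493 and 1360 of the 14187 genes tested. In controls 19 rose and in labelled KO libraries 13, beside 11% and 15.5% of all genes. Without replicate 2 of the labelled KO day 1 group Prim1, a primase subunit, was higher (0.45, edgeR adjusted p = 0.031). Among 28 mitosis genes 3 were higher, the ubiquitin carrier Ube2c (0.78 ± 0.17), cyclin B2 (Ccnb2, 0.58 ± 0.13) and the anaphase activator Cdc20 (0.57 ± 0.14), beside 3.47% of all genes, and 6 were higher without replicate 2 of the labelled KO day 1 group. Ccnb2 and Cdc20 were not called by either limma fit. Ube2c stood at 76.7, 81.9 and 88.4 CPM at day 1 and 77.3, 75.3 and 59.2 at day 3 in controls. Ube2c under the KO label stood at 147, 99.2 and 141 CPM at day 1 and 179.9, 183 and 208 at day 3, which were above controls at both days. The proliferation marker Mki67 was also above controls at both days and differed in its step by 0.03 ± 0.19, which was not called. Cyclin D1 (Ccnd1), which drives entry into the cycle, fell in both lines and fell further in labelled KO libraries (-0.52 ± 0.14), and Ccnd2 was lower as well (-0.51 ± 0.11), while Ccnd3, the D cyclin kept in myotubes, was higher (0.54 ± 0.15). Ccnd1 was not called in 2 of 23 alternatives (-0.63 to -0.47 over all 23), without replicate 1 or 2 of the labelled KO day 3 group, and Ccnd3 was not called in 6 of 23 alternatives (0.35 to 0.64 over all 23). Without replicate 2 of the labelled KO day 1 group the difference of Ccnd3 was 0.35. The cycle inhibitor Cdkn1a rose in both lines with a difference of 0.50 ± 0.17 that was not called, and it was higher without replicate 1 of the labelled KO day 1 group (0.58) and with no filter on low counts (0.496).

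The lists of extracellular matrix, cholesterol synthesis and TGF-beta signalling held more negative than positive calls. Of 32 matrix genes, 13 were lower and 5 higher, beside 2.58% and 3.47% of all genes, with a median of -0.38. Fn1, fibronectin, which links cells to the matrix, stood at 11672, 11452 and 10194 CPM at day 1 and 13926, 13719 and 14209 at day 3 in controls. Fn1 under the KO label stood at 9637, 8729 and 9956 CPM at day 1 and 6010.5, 7215 and 4948 at day 3, where the day 3 values were below all others. The control step of 0.33 was not called, Fn1 fell by 0.64 in labelled KO libraries, and the difference was -0.97 ± 0.17 (edgeR adjusted p = 5.37e-04). Tenascin C (Tnc), a glycoprotein of remodelling matrix, fell by 0.83 in labelled KO libraries with no called control step (difference -1.11 ± 0.18). Collagen V (Col5a1), which nucleates collagen fibrils, measured 901, 845 and 769.96 CPM at day 1 and 1912, 1951 and 1861 at day 3 in controls. Col5a1 under the KO label measured 658, 545 and 642 CPM at day 1 and 769, 783 and 603 at day 3, a rise in controls with no called step in the other line (difference -0.96 ± 0.13). Col5a3 differed by -1.18 ± 0.15.

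Basement membrane collagen IV shows why the sign of the difference is not the sign of the level. Col4a1 stood at 50.7, 48.05 and 50.6 CPM at day 1 and 88.5, 84.3 and 80.6 at day 3 in controls. Col4a1 under the KO label stood at 594, 581 and 609 CPM at day 1 and 614, 609 and 531 at day 3, several times higher under the KO label at both days, yet it rose only in controls, so its difference was negative (-0.79 ± 0.10), as was that of its partner Col4a2 (-1.09 ± 0.12). Sparc, which binds collagen, rose by 0.88 in controls with no called step in labelled KO libraries (-0.73 ± 0.11), and periostin (Postn) rose in both but less under the KO label (-0.78 ± 0.17). The 5 positive matrix genes were the elastic fibre protein Fbln5 (1.94 ± 0.26), decorin Dcn (1.67 ± 0.22), Fbln1 (0.87 ± 0.14), biglycan Bgn (0.81 ± 0.12) and Col6a2 (0.57 ± 0.15), which was not called in 10 of 23 alternatives (0.41 to 0.63 over all 23). Decorin, a proteoglycan that binds TGF-beta, stood at 24.3, 25.1 and 24.9 CPM at day 1 and 26.3, 25.6 and 24.9 at day 3 in controls. Dcn under the KO label stood at 17.6, 13.4 and 15.9 CPM at day 1 and 51.003, 50.7 and 53.03 at day 3, which crossed from below controls to above them. Fbln5 was far lower in labelled KO libraries at both days, and its difference had the opposite sign on log2(TPM + 1), at -0.22. Fibril collagens Col1a1 (0.36) and Col3a1 (-0.30) were not called.

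Timp3, the matrix-bound inhibitor of metalloproteases, had the largest of 3 called differences among 15 proteases and inhibitors, beside 6.05% of all genes. Timp3 stood at 173, 191 and 162 CPM at day 1 and 405, 376 and 398 at day 3 in controls. Timp3 under the KO label stood at 221, 262 and 239 CPM at day 1 and 220.3, 206 and 196 at day 3, rising only in controls (difference -1.38 ± 0.12, edgeR adjusted p = 3.16e-08). In the TGF-beta list 7 of 26 genes were lower and 1 higher, beside 2.58% and 3.47% of all genes, at a median of -0.29. Ctgf, a matricellular protein induced by TGF-beta and Yap, stood at 15.2, 17.3 and 14.2 CPM at day 1 and 52.8, 50.2 and 42.9 at day 3 in controls. Ctgf under the KO label stood at 80.6, 74.6 and 82.1 CPM at day 1 and 79.2, 58.5 and 51.3 at day 3, so that controls were far below at day 1 and overlapped the labelled KO group at day 3. It rose by 1.64 in controls with no called step under the KO label (difference -1.97 ± 0.21). Inhba, the subunit of activin A, measured 9.17, 10.1 and 6.19 CPM at day 1 and 19.9, 18.9 and 19.4 at day 3 in controls. Inhba under the KO label measured 5.59, 7.53 and 6.71 CPM at day 1 and 6.2, 5.54 and 4.67 at day 3 (difference -1.47 ± 0.23). The ligand Tgfb2 (-0.72 ± 0.11), the receptor Tgfbr2 (-0.37 ± 0.11), Cyr61 (-0.87 ± 0.12), the secreted antagonists Nog (-1.298 ± 0.27) and Fstl1 (-0.54 ± 0.10) were lower too, and Inhbb was higher (0.79 ± 0.16). Of these, Inhbb was not called in 1 of 23 alternatives (0.59 to 0.88 over all 23), the GC offset with a replicate block, and Tgfbr2 was not called in 10 of 23 alternatives (-0.48 to -0.33 over all 23), and its adjusted p was 0.0587 with a replicate block.

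Ctgf, Actg2 and Cnn1 were all among the 10 largest negative differences under the expression limit given for Oasl2. After these values were seen, a list of smooth muscle contractile and actin cytoskeleton genes was drawn up, and it is given as a description only: 20 of 31 tested members were lower and 0 higher by edgeR's test and by DESeq2, beside 2.58% and 3.47% of all genes, at a median of -0.55. In controls 17 of the 31 rose and 0 fell, beside 11% and 8.68% of all genes, and in labelled KO libraries 7 rose and 12 fell, beside 15.5% and 11.2%. Actg2, smooth muscle gamma actin (chr6:83512909-83536251), stood at 7.94, 5.98 and 7.302 CPM at day 1 and 53.5, 54.1 and 47.1 at day 3 in controls. Actg2 under the KO label stood at 9.56, 8.66 and 9.76 CPM at day 1 and 13.1, 12.8 and 10.7 at day 3. Only the control day 3 libraries were above 40 CPM, and the difference was -2.48 ± 0.22 (edgeR adjusted p = 9.18e-08). Tagln, an actin-binding protein of smooth muscle, measured 12.1, 9.796 and 11.4 CPM at day 1 and 194, 189.7 and 176 at day 3 in controls. Tagln under the KO label measured 13.98, 12.8 and 12.5 CPM at day 1 and 80.96, 62.3 and 60.02 at day 3. It rose in both lines, with a difference of -1.700 ± 0.30. Cnn1, calponin, which binds actin and slows myosin, stood at 1.02, 1.399 and 1.11 CPM at day 1 and 9.05, 8.02 and 7.63 at day 3 in controls. Cnn1 under the KO label stood at 1.08, 1.55 and 0.895 CPM at day 1 and 1.86, 2.28 and 2.38 at day 3 (difference -1.93 ± 0.31).

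The same list held abundant genes of the general cytoskeleton. Filamin A (Flna), which crosslinks actin, stood at 2136, 1969.6 and 1859 CPM at day 1 and 2498, 2542 and 2453 at day 3 in controls. Flna under the KO label stood at 1733, 1861 and 1806 CPM at day 1 and 1079, 1209 and 978 at day 3, rising in one and falling by 0.73 in the other (difference -1.05 ± 0.13). Alpha-actinin 1 (Actn1, -0.69 ± 0.10), nonmuscle myosin Myh9 (-0.61 ± 0.14), vinculin (Vcl, -0.53 ± 0.11) and calponin 2 (Cnn2, -0.59 ± 0.11) were lower. Myl9, the regulatory light chain (-0.57 ± 0.17), passed narrowly and was not called in 10 of 23 alternatives (-0.72 to -0.50 over all 23). Acta2, the best known smooth muscle actin, rose in both lines and differed by -0.38 ± 0.21, which was not called. Of 19 Yap factors and targets, also listed after values were seen, 5 were lower and 1 higher, beside 2.58% and 3.47% of all genes. Without replicate 2 of the labelled KO day 1 group 8 were lower, in a fit that called 562 of all genes lower, against 366 with that library. Ankrd1 differed by -0.74 ± 0.14.

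Many actin and smooth muscle genes carry the CArG box, the element bound by serum response factor. It was found in 1.6% of the 10422 promoters, in 12 of 276 with a negative difference (4.3%), in 4 of 354 with a positive one (1.1%) and in 7 of 26 from the smooth muscle and actin list (26.9%). The windows of 3 lower members of that list show the element in capitals, on the gene's strand.
Cnn2: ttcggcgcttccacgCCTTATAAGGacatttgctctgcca
Myl9: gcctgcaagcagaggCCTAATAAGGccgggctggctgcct
Vcl: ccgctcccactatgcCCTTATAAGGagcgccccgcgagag
These lie at chr10:79988529-79988568, plus strand, for Cnn2, chr2:156775288-156775327, plus strand, for Myl9, and chr14:20929156-20929195, plus strand, for Vcl, of GRCm38.p6. The Tead site GGAATG, on either strand, was in 14.6% of all promoters, in 15.2% of those with a negative difference, in 18.6% of those with a positive one and in 11 of 26 from the smooth muscle and actin list (42.3%). Because that list was drawn up after values were seen, its shares cannot say whether either element goes with the difference of the steps. They cover all 26 members with a promoter, called or not. A match describes letters and is not evidence of binding in these cells.

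**Figure D4:**
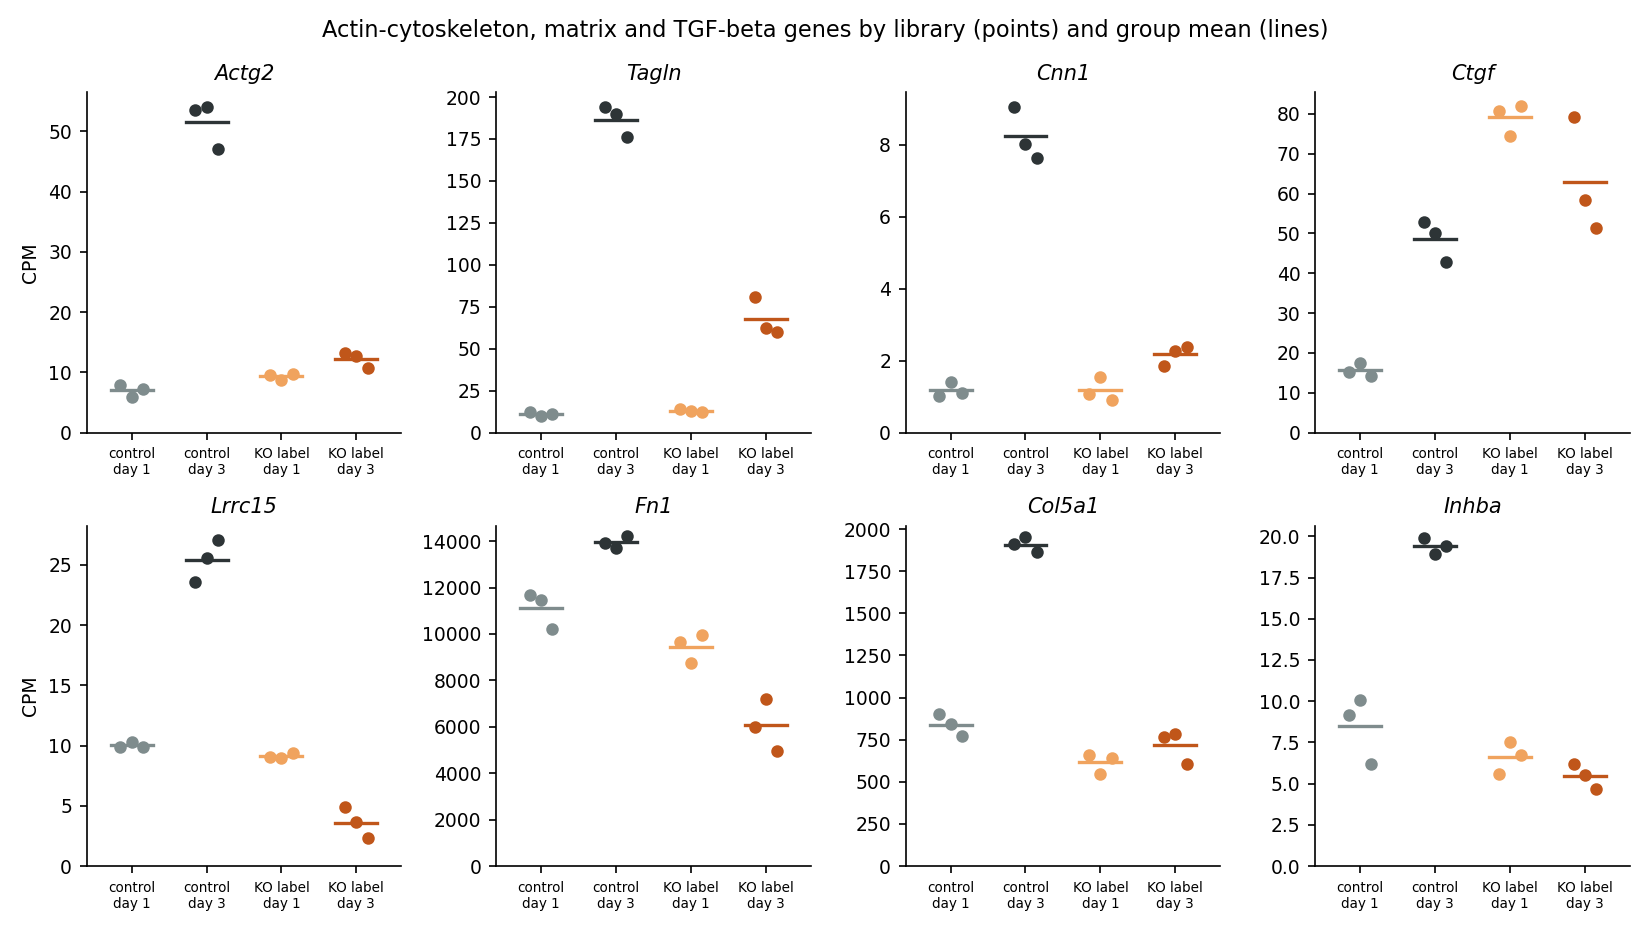
CPM (y axis, from 0) of 8 genes with negative differences in the 4 groups (x axis), with a point for each of 3 libraries and a line at the group mean. The control day 3 libraries are the highest group for every gene but Ctgf, which is highest under the KO label at day 1, and Lrrc15 rises in controls and falls in labelled KO libraries.

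Cholesterol synthesis genes had small differences of 1 direction. Of 22 tested, 8 were lower and 0 higher by edgeR's test (16 and 0 at an unadjusted p under 0.05, 12 and 0 by DESeq2), beside 2.58% and 3.47% of all genes, at a median of -0.42. In labelled KO libraries 15 of them fell and 0 rose, beside 11.2% and 15.5% of all genes, and in controls 0 fell and 1 rose, beside 8.68% and 11%. Sqle, squalene epoxidase, stood at 307, 292 and 299 CPM at day 1 and 325, 332 and 323 at day 3 in controls. Sqle under the KO label stood at 449, 459 and 455 CPM at day 1 and 309, 289 and 315 at day 3. All 3 labelled KO libraries were above the controls at day 1 and below them at day 3, and the difference was -0.70 ± 0.08 (edgeR adjusted p = 7.59e-06). Hmgcs1, an early enzyme of the pathway (-0.63 ± 0.14), Lss (-0.64 ± 0.13), Cyp51 (-0.52 ± 0.12), Msmo1 (-0.58 ± 0.12), Hsd17b7 (-0.56 ± 0.14) and Acat2 (-0.51 ± 0.12) were lower as well. The regulator Srebf2 (0.04) and squalene synthase Fdft1 (-0.02) were not called. Without replicate 2 of the labelled KO day 1 group 14 of the 22 were lower, in a fit that called 562 of all genes lower, against 366 with all 12 libraries. The sterol site ATCACNCCAC, on either strand, was in 0.2% of all promoters and in 0 of the 14 matched from this list.

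**Figure D5:**
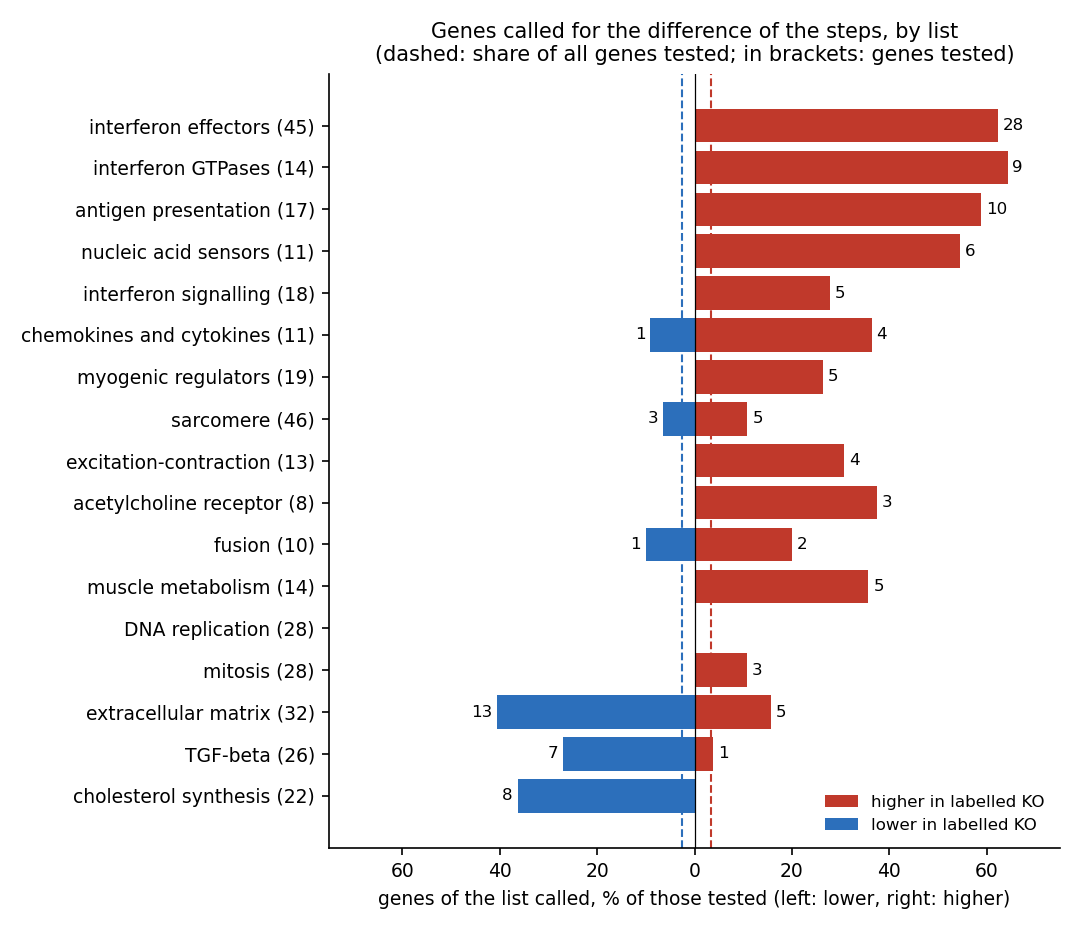
Share of each list's tested genes (x axis, percent) whose difference was called, with higher to the right in red and lower to the left in blue, the number of genes at the bar ends, the number tested in brackets, and dashed lines at the 3.47% and 2.58% of all genes. Interferon effectors, interferon GTPases, antigen presentation and nucleic acid sensors extend furthest to the right and, of the lists drawn, matrix and cholesterol furthest to the left.

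Single genes outside these lists had some of the largest differences. Lrrc15, a leucine-rich membrane protein of mesenchymal cells induced by TGF-beta (chr16:30269302-30283254), had the most negative value under the same limit. Lrrc15 stood at 9.896, 10.3 and 9.91 CPM at day 1 and 23.6, 25.6 and 27.02 at day 3 in controls. Lrrc15 under the KO label stood at 9.07, 8.96 and 9.35 CPM at day 1 and 4.89, 3.66 and 2.29 at day 3. The groups were near 10 CPM at day 1 and wholly apart at day 3, after a rise of 1.34 in controls and a fall by 1.34 under the KO label (difference -2.68 ± 0.24, edgeR adjusted p = 6.88e-08). Alox5, which makes leukotrienes from arachidonic acid, measured 32.5, 32.7 and 32.9 CPM at day 1 and 32.4, 28.7 and 33.4 at day 3 in controls, where it had no called step. Alox5 under the KO label measured 14.1, 11.5 and 14.3 CPM at day 1 and 2.81, 3.22 and 3.59 at day 3, where it fell by 2.05 (difference -1.995 ± 0.16). Ngfr, the low-affinity neurotrophin receptor, overlapped between the lines at day 1. Ngfr stood at 6.16, 5.26 and 6.62 CPM at day 1 and 2.31, 2.95 and 3.69 at day 3 in controls. Ngfr under the KO label stood at 5.19, 4.604 and 7.03 CPM at day 1 and 0.815, 0.179 and 0.314 at day 3, falling in both and further under the KO label (-2.66 ± 0.41). Pappa, a protease that frees IGF from its binding proteins, differed by -2.75 ± 0.38, Sema4f, a semaphorin, by -2.34 ± 0.39, and Trabd2b, which cleaves Wnt ligands, by -2.19 ± 0.26. The kinase Stk32b (-2.24 ± 0.29), the metalloprotease Adamts16 (-1.95 ± 0.22) and the nuclear protein Trim66 (-2.24 ± 0.32) rose in controls and fell in labelled KO libraries. Glipr1, a secreted protein of the CAP family, fell by 2.60 under the KO label and differed by -2.37 ± 0.27. Aoc3, an amine oxidase, rose in controls and stayed between 0.134 and 0.224 CPM under the KO label, and its difference of -2.31 ± 0.60 was not called in 2 of 22 alternatives (-2.496 to -1.13 over all 22): without replicate 2 of the labelled KO day 1 group (edgeR adjusted p = 0.0623) and without replicate 2 of the labelled KO day 3 group (0.0561).

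On the positive side, nephronectin (Npnt), a matrix ligand of integrin alpha 8, stood at 15.6, 15.1 and 11.7 CPM at day 1 and 19.2, 21.8 and 23.03 at day 3 in controls. Npnt under the KO label stood at 6.36, 5.44 and 7.56 CPM at day 1 and 87.8, 48.3 and 56.3 at day 3, crossing from below to above controls (difference 2.72 ± 0.26). Ace, the angiotensin converting enzyme, measured 20.98, 21.2 and 17.98 CPM at day 1 and 4.48, 3.34 and 5.81 at day 3 in controls. Ace under the KO label measured 0.947, 1.93 and 2.19 CPM at day 1 and 2.26, 1.34 and 2.92 at day 3. Its positive difference of 2.498 ± 0.39 came with a fall of 2.14 in controls, toward the low level held in labelled KO libraries at both days. Hsd11b1, which regenerates active glucocorticoid, stood at 4.76, 4.07 and 6.32 CPM at day 1 and 13.9, 14.3 and 12.6 at day 3 in controls. Hsd11b1 under the KO label stood at 0.0902, 0.0837 and 0.179 CPM at day 1 and 11.1, 8.35 and 7.13 at day 3, where it was near 0 at day 1 (difference 4.75 ± 0.40). Scara3, a scavenger receptor, had 0 counts in the 3 labelled KO day 1 libraries and 21 in all at day 3, at least 2.39-fold higher against the floor of 3 counts, while in controls it stood at 9.68, 10.6 and 9.39 CPM at day 1 and 13.6, 15.1 and 12.6 at day 3. The difference of Scara3 was -0.24 on log2(TPM + 1), of opposite sign to that of the count fit. Igf2 and H19, neighbouring imprinted genes induced in myogenesis, rose in both lines with differences of 1.103 ± 0.68 and -0.00 ± 0.13 that were not called, although Igf2 was higher on log2(TPM + 1) with limma (1.66).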

How the data were processed

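Reads from poly(A)-selected RNA were aligned with Bowtie2 and quantified with RSEM on mm10, per the submitters' processing notes; versions, the annotation and the strand setting are not given in the sources used here. The authors deposited a table of estimated counts and a table of TPM, each with 32793 gene rows and 23 samples. The deposited counts were already whole numbers, so rounding changed 0 values. RSEM divides shared reads between near-identical genes, so members of families such as Apol9, Ifit3, Tgtp and H2 are uncertain.

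Genes with too few counts were removed (edgeR filterByExpr, minimum count 10, total 15), which left 14187. TMM scaling and a group-means model over all 23 libraries were used with edgeR 4.0.16 in R 4.3.3, and SE is the log2 fold change divided by the square root of F. The script was tested on simulated data. Alternatives used DESeq2 1.42.0 and limma 3.58.1 on log2(TPM + 1) and log2(TPM + 0.1). Intervals and floors (3 counts) cover counting error only. Replicate numbers did not pair the libraries: of 18 correlations between the deviations of same-numbered libraries, 0 exceeded 0.1.

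Named genes were Runx1, list members, and the 10 most positive and 10 most negative calls with at least 1 CPM in every group and 5 in the highest, with 5 and 5 more that had a group under 1 CPM; a few of these genes are not reported here. The comparison and the gene lists were chosen with earlier results of these data known, and the smooth muscle and Yap lists after the values here were seen. Promoters and gene positions came from RefSeq GRCm38.p6, and GC content was matched by symbol for 13265 genes (93.5%) from GENCODE vM21 transcripts.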

Additional observations from a re-analysis of the deposited data

Results flagged for a closer look

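The step from day 1 to day 3 differed between the lines for 858 genes by the test of the difference itself. Among the genes named in the text, 14 had called steps of opposite direction in the 2 lines, each with a called difference. Rtp4 (4.03), Id1 (1.48), Stac3 (1.08), Fbln1 (0.87), Myf5 (0.79) and Ccnb2 (0.58) fell in controls and rose in labelled KO libraries. Lrrc15 (-2.68), Trim66 (-2.24), Stk32b (-2.24), Adamts16 (-1.95), Flna (-1.05), Actn1 (-0.69), Cdon (-0.62) and Vcl (-0.53) rose in controls and fell in labelled KO libraries. Stk32b stood at 9.98, 10.01 and 12.98 CPM at day 1 and 21.5, 21.8 and 17.3 at day 3 in controls and at 2.89, 3.01 and 2.42 CPM at day 1 and 1.63, 0.938 and 0.673 at day 3 in labelled KO libraries, and Adamts16 at 12.9, 12.8 and 13.2 CPM at day 1 and 28.5, 27.5 and 19.3 at day 3 in controls and at 12.4, 15.6 and 17.01 CPM at day 1 and 9.28, 6.79 and 6.42 at day 3 under the KO label. Trim66 was at 2.68, 2.59 and 2.22 CPM at day 1 and 6.88, 6.41 and 4.99 at day 3 in controls, and its labelled KO values lay between 0.407 and 1.09 CPM.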

How the results depend on the processing

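The count of 858 lay between 663 and 1177 under other scalings, filters, tools, GC offsets and sample sets, and the labelled KO and control steps stayed within 1.5 times of 3790 and 2797. An adjusted p under 0.01 left 445, 1623 and 2319 genes for the difference, the control step and the labelled KO step, and a log2 size of at least 1 left 300, 661 and 839. Leaving out 1 of the 12 libraries gave 601 to 1084 genes for the difference, 2036 to 3888 for the control step and 2960 to 4072 for the labelled KO step. On log2(TPM + 1) 422 of 877 called differences were higher. A replicate block gave 762 genes, and 1020 together with a GC offset; of 135 called genes named in the text it lost 7. Of those 135, 106 kept their call in all of up to 23 alternatives, and 5 lost it without replicate 2 of the labelled KO day 1 group. Of 29 named genes that were not called, 8 were called in at least 1 alternative: Myh3, Ckm, Jak1, Cdkn1a, Prim1, Igf2, Oas2 and Usp18. On log2(TPM + 1) the sign turned for Scara3 (-0.24) and Fbln5 (-0.22), neither of them called there; the cause was not tested. The list counts without replicate 2 of the labelled KO day 1 group or replicate 1 of the labelled KO day 3 group were added after the data were seen. Depth limits genes with few counts: for Oas2 and Scara3, at 0 in a group, only bounds are given.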

Other observations

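Other listed signals held a few differences each. Of 13 insulin-like growth factor genes, the binding protein Igfbp4 was higher (1.32 ± 0.19) and the receptor Igf1r (-0.48 ± 0.14) and its adaptor Irs1 (-0.59 ± 0.14) were lower, beside 3.47% and 2.58% of all genes. Igf1r was not called in 14 of 23 alternatives (-0.58 to -0.40 over all 23), the replicate block among them (edgeR adjusted p = 0.0519). Igfbp4 stood at 129.8, 129 and 122 CPM at day 1 and 126, 99.99 and 97.4 at day 3 in controls and at 4.56, 3.56 and 5.102 CPM at day 1 and 9.28, 11.3 and 7.31 at day 3 in labelled KO libraries, so its positive difference lay within a much lower level. Of 13 Notch genes 3 were higher and 0 lower by edgeR's test (4 and 1 unadjusted, 3 and 1 by DESeq2), beside 3.47% and 2.58% of all genes, and the ligand Dll1 led them. Dll1 measured 23.6, 14.5 and 23.6 CPM at day 1 and 26.9, 24.3 and 21.9 at day 3 in controls and 11.6, 10.8 and 11.3 CPM at day 1 and 35.7, 29.9 and 29.7 at day 3 under the KO label, lower than controls at day 1 and higher at day 3 (1.26 ± 0.21). The targets Hey1 (0.50 ± 0.13) and Hes6 (0.47 ± 0.14) passed narrowly. Hey1 was not called in 9 of 23 alternatives (0.36 to 0.56 over all 23) and Hes6 was not called in 14 of 23 alternatives (0.22 to 0.54 over all 23), the lowest with a GC offset. Of 18 Wnt genes 3 were lower and 0 higher by edgeR's test (7 and 2 unadjusted, 3 and 1 by DESeq2), beside 2.58% and 3.47% of all genes: the ligands Wnt11 (-1.32 ± 0.22) and Wnt10b (-0.63 ± 0.15) and the secreted target Wisp1 (-0.74 ± 0.15).

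Stress and death genes held few calls. The stress factors Atf3 (-0.54 ± 0.16) and Trib3 (-0.97 ± 0.27) were the 2 calls among 14 tested (14.3%), and the death receptor Tnfrsf10b (-0.48 ± 0.11) was the 1 call among 19 (5.26%), all of them lower, beside 2.58% of all genes. Atf3 was not called in 10 of 23 alternatives (-0.66 to -0.41 over all 23), the replicate block among them (edgeR adjusted p = 0.0585), and Trib3 was not called in 7 of 23 alternatives (-1.18 to -0.74 over all 23). Egr3, an immediate-early factor, was the 1 called gene of the AP-1 and early-response list of 13 (0.88 ± 0.18), beside 6.05% of all genes. All 13 were lowest of their group in replicate 2 of the labelled KO day 1 group. Without that library 1 was higher and 2 lower, and the median of the list went from 0.18 to -0.035. Spp1, osteopontin, fell in both lines, and less in labelled KO libraries. Spp1 stood at 1519, 1496 and 1504 CPM at day 1 and 626, 612 and 602 at day 3 in controls and at 806, 965 and 845 CPM at day 1 and 533, 506 and 581 at day 3 under the KO label (0.61 ± 0.13, not called by either limma fit).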
